A study of Mus musculus with 40 samples.

Results

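The genes described here are 9 genes of the retinal pigment epithelium (RPE) and the visual cycle, Rpe65, Lrat, Rdh5, Rdh10, Rlbp1, Rgr, Best1, Stra6 and Ttr, chosen by symbol out of the 54307 genes of the deposited table and followed through all 40 libraries. RNA had been sequenced from choroid and retina on day 3 after laser treatment with 6 burns per eye. Both tissues are taken to come from the same 20 mice, by the mouse numbers in the labels. In each of 4 groups, named control – PLX, Tgfbr2ΔEC – PLX, control + PLX and Tgfbr2ΔEC + PLX, there were 5 mice. The mice are numbered 1 to 5, 6 to 10, 11 to 15 and 16 to 20 in these groups, and values are listed in that order. All mice were C57BL/6J of both sexes with floxed Tgfbr2 alleles (Tgfbr2 fl/fl), and all received tamoxifen eye drops for 5 days from an age of 6 to 7 weeks. Tgfbr2ΔEC mice also carried Cdh5-CreERT2, a tamoxifen-inducible Cre recombinase under the promoter of an endothelial cadherin, which is active in vessels of the whole animal, and controls were littermates without Cre. The + PLX mice ate PLX5622, an inhibitor of the CSF1 receptor that depletes mononuclear phagocytes (MP), from the first tamoxifen dose to the end. Every mouse was lasered, so there was no unlasered reference, and choroid samples were the central lesioned part. How much RPE stayed with either tissue at dissection is not given in the sources used here.

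The RPE is a single layer of pigmented cells between the photoreceptors and the choroidal vessels, and it regenerates the visual chromophore. Light turns 11-cis-retinal into all-trans-retinal in the photoreceptors, and all-trans-retinol returns to the RPE, where it is esterified (LRAT), isomerized to 11-cis-retinol (RPE65), oxidized to 11-cis-retinal (RDH5) and sent back. Müller glia, the radial glia of the neural retina, take part in a second cycle that serves cones and share some of its proteins. The RPE lies between both tissues and mostly stays on the choroid when the retina is lifted off.

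All 9 genes were detected in every library, and all 9 were far higher in choroid than in retina (log2 difference 1.59 to 6.18). None of the 9 was called different between Tgfbr2ΔEC and control mice, or between + PLX and – PLX mice, in either tissue, by limma at an adjusted p of 0.05 or under. In the choroid 8 of the 9 moved together from mouse to mouse, and Best1 did not. In the retina 7 of the 9 varied widely between mice (SD 0.64 to 0.91, log2), and Rlbp1 and Rdh10 much less (0.28 and 0.21).

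The 250 bases before the transcription starts of these genes were searched on both strands for 3 short motifs. The letters TAATCC are the core of the motif of OTX2 and its relative CRX, homeodomain factors of the RPE and of photoreceptors. Further, CATGTG is an E-box bound by MITF, the factor of pigment cells, and the palindrome CACGTG is the other E-box that MITF binds. The 3 motifs do not overlap each other. RefSeq promoters (table build GRCm38.p6) were matched for 7 of the 9 genes, and each window was placed on GRCm39 by its exact sequence. The OTX2 core was present in the windows of Rpe65, Rgr and Best1 (3 of the 10 windows of these 7 genes, Stra6 having 4), against 6.25% of all 32851 promoter windows of the same 250 bases. The MITF E-box was present in those of Rpe65 and Rlbp1 (2 of 10), against 12.3% of all windows, and the palindromic E-box was in 0 of 10 and in 6.02% of all. The windows of Lrat, Rdh5 and Stra6, which varied with the other genes in choroid, held none of the 3 motifs, and Best1, which did not, held 1. The 4 windows with a match are shown 5′ to 3′ on the strand of the gene, ending at the base before the annotated start, with each match in capitals as it reads on that strand. A match of these letters is a description and shows no binding.
Rpe65 (chr3:159304568-159304817, plus strand): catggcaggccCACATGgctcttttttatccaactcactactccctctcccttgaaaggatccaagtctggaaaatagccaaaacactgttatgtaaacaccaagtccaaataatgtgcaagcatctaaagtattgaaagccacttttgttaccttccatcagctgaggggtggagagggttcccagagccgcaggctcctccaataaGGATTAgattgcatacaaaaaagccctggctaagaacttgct
Rgr (chr14:36770972-36771221, minus strand): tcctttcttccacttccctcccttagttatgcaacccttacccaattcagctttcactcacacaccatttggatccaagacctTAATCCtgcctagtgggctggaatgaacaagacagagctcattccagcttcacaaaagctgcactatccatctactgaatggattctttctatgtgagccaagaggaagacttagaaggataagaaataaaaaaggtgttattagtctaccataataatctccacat
Best1 (chr19:9978998-9979247, minus strand): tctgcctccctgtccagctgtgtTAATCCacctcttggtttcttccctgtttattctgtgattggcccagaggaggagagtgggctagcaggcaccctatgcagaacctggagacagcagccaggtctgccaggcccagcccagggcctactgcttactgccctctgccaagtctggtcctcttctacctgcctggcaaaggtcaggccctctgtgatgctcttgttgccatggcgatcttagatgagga
Rlbp1 (chr7:79036776-79037025, minus strand): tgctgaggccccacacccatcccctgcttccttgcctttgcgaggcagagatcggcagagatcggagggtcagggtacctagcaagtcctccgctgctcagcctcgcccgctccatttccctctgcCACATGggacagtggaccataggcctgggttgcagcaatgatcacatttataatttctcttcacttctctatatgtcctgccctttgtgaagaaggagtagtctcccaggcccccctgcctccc
In Rpe65 the OTX2 core lay 42 to 37 bases before the start and the E-box 239 to 234 bases before it. The OTX2 core lay farther out in Rgr, at 167 to 162 bases, and in Best1, at 227 to 222 bases. The E-box of Rlbp1 lay 124 to 119 bases before the start. Start sites are those of RefSeq. Those of Rpe65, Rgr and Rlbp1 differ from the GENCODE gene bounds given with each gene, and that of Best1 is the same. The Rlbp1 window lies inside the gene as GENCODE draws it.

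Values are normalized counts, which depend on transcript length, so levels of different genes were compared per kilobase of the canonical transcript. In the choroid the order was Ttr (73206 per kb), Rgr (22724), Rpe65 (16334), Rdh5 (11317), Rlbp1 (9231), Rdh10 (4255), Lrat (3069), Stra6 (1975) and Best1 (26.8). Ttr was above Rgr, and Stra6 above Best1, without overlap of the 20 values per kb, and the ranges of all other neighbours overlapped. Within a mouse the order was nevertheless kept in 20 of 20 choroids for every pair of neighbours except Rgr and Rpe65 and Rdh5 and Rlbp1, which kept it in 19 of 20. Rgr and Ttr ranked 16 and 17 of all genes by mean normalized count in choroid, and Best1 ranked 14271. Together the 9 genes made up 1.21% of the normalized counts of a choroid (range 0.733% to 1.66%) and 0.0637% of those of a retina.

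In the retina the order per kilobase changed to Rlbp1 (3058 per kb), Ttr (1588), Rgr (512), Rpe65 (345), Rdh10 (337), Rdh5 (284), Stra6 (62.4), Lrat (46.1) and Best1 (3.70). Rlbp1 thus ranked 1 among the 9 in retina and 5 in choroid, and it was above Ttr in 20 of 20 retinas. Rpe65 exceeded Rdh10 in 13 of 20 retinas, Rdh10 exceeded Rdh5 in 14 and Stra6 exceeded Lrat in 14, so these neighbours were not separated. The other neighbours kept their order in 20 of 20 retinas, although only the ranges of Lrat and Best1 did not overlap.

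**Figure D1:**
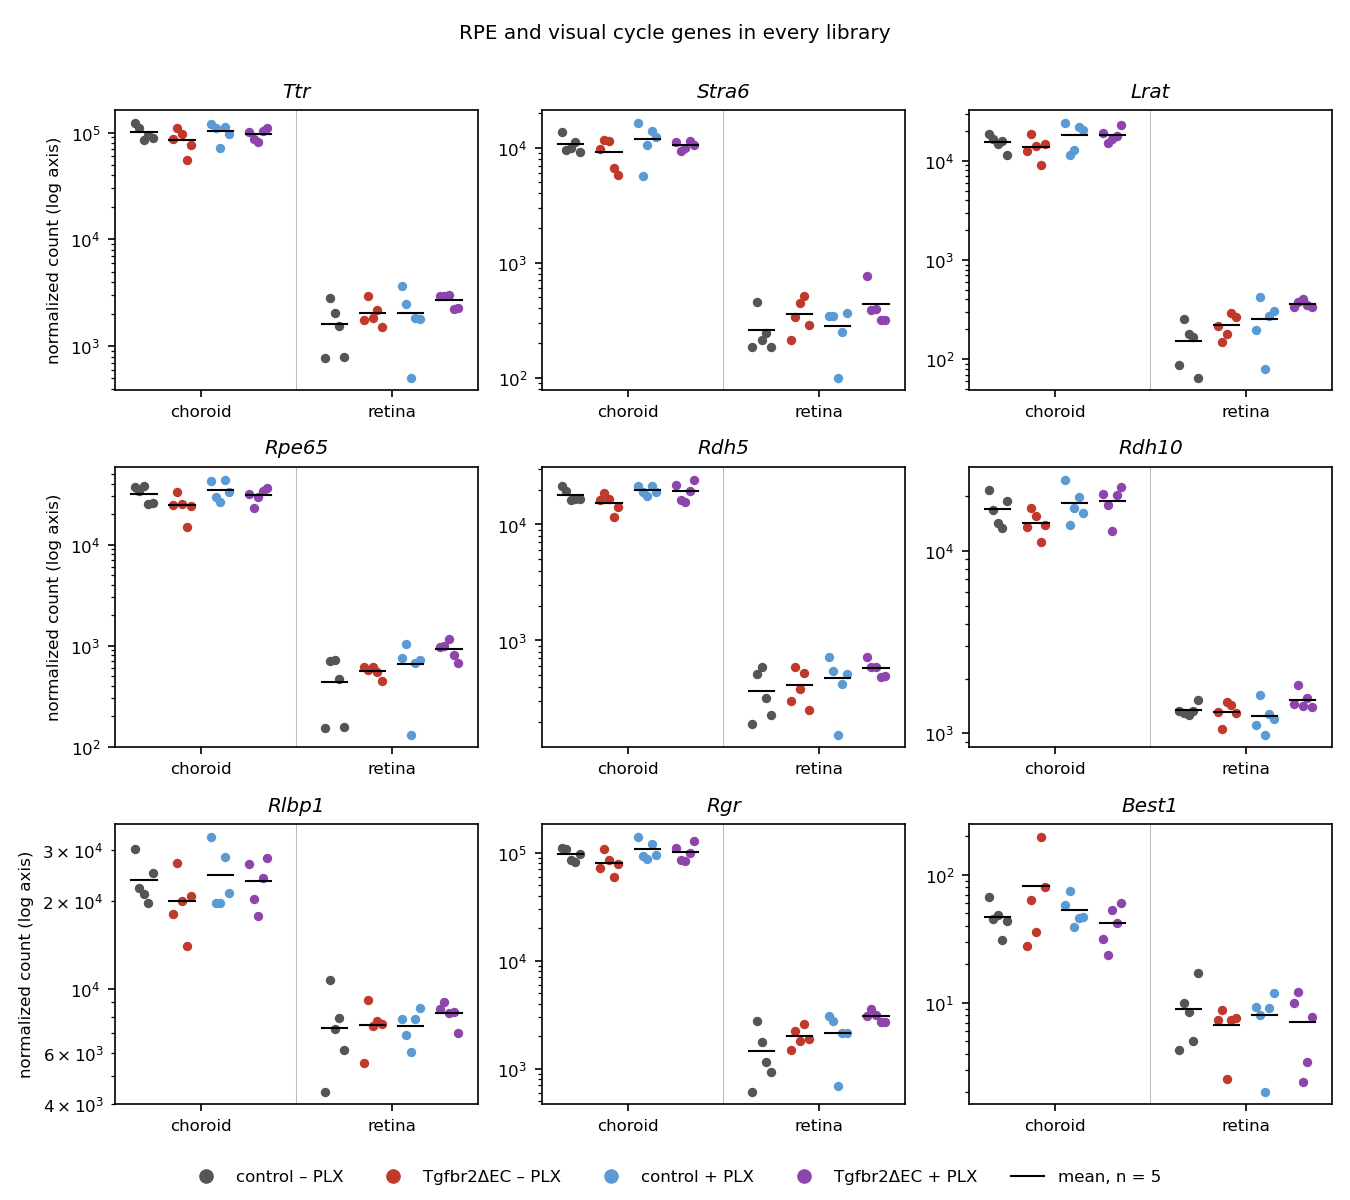
Normalized counts of the 9 genes in every library, with 1 panel per gene and a log axis. Each point is 1 mouse, colours give the group and black bars the mean of 5 mice. All 20 choroids lie above all 20 retinas for each of the 9 genes, and the groups of a tissue overlap except in retina for Lrat, Rpe65 and Rgr, where every Tgfbr2ΔEC + PLX mouse lies above every Tgfbr2ΔEC – PLX mouse (for Lrat above the control – PLX mice too).

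Retinol reaches the RPE bound to retinol-binding protein and transthyretin. Ttr encodes transthyretin, which the RPE itself also secretes (chromosome 18, 20797253 to 20807467, plus strand, GRCm39, as all gene positions below). It was at 123665, 111427, 85065, 93946 and 88322 normalized counts in the control – PLX choroids and at 87651, 111359, 97273, 55650 and 76460 in those of Tgfbr2ΔEC – PLX mice. With PLX the values were 121078, 109978, 71858, 112693 and 96457 in controls and 101949, 86302, 81720, 103372 and 110549 in Tgfbr2ΔEC mice. The lowest of the 20 was mouse 9 of the Tgfbr2ΔEC – PLX group, at 55650, and all 4 groups overlapped. Retinas held between 507 and 3632 (median 2125), with mouse 13 of the control + PLX group lowest.

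Stra6 (chromosome 9, 57970967 to 58063543, plus strand) encodes the membrane receptor that takes retinol from its binding protein into the RPE. Choroid means were 10716 ± 1852 (SD, n = 5) in control – PLX, 9097 ± 2725 in Tgfbr2ΔEC – PLX, 11805 ± 4057 in control + PLX and 10567 ± 908 in Tgfbr2ΔEC + PLX. The control + PLX group was the widest, from 5713 in mouse 12 to 16508 in mouse 11, which were also the lowest and the highest of all 20. Retinas ranged from 99.8 in mouse 13 to 764 in mouse 16. On the opposite strand the gene overlaps Islr, which had a mean of 5911 in choroid and 43.3 in retina. The libraries were stranded, but whether the counting used the strand is not given in the sources used here.

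Lrat (chromosome 3, 82799886 to 82811288, minus strand) encodes lecithin retinol acyltransferase, which makes the retinyl esters that the isomerase uses. Its choroid values were 18610, 16643, 14654, 15903 and 11565 in control – PLX and 12510, 18783, 13978, 9183 and 14631 in Tgfbr2ΔEC – PLX mice. Those of the PLX groups were 24224, 11488, 12800, 21993 and 20328 in controls and 19295, 15043, 16608, 17817 and 22827 in Tgfbr2ΔEC mice. The PLX groups thus reached higher, but 2 of the 5 control + PLX choroids (mice 12 and 13) lay among the lower values of the – PLX mice. In the retina the values were 86.5, 252, 181, 169 and 65.0 in control – PLX, 217, 149, 181, 295 and 265 in Tgfbr2ΔEC – PLX, 197, 421, 79.1, 271 and 307 in control + PLX and 338, 375, 407, 348 and 338 in Tgfbr2ΔEC + PLX mice. All 5 Tgfbr2ΔEC + PLX retinas lay above every – PLX retina, whereas the control + PLX retinas spread over nearly the whole range.

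Rpe65 (chromosome 3, 159304802 to 159330958, plus strand) encodes the isomerohydrolase, the step for which the visual cycle depends on the RPE. The control – PLX choroids held 36856, 33980, 38007, 25101 and 25751 and the Tgfbr2ΔEC – PLX choroids 24771, 33174, 25404, 14927 and 23886. In the + PLX groups they held 42223, 29903, 26236, 43885 and 32931 in controls and 32007, 23050, 29298, 34329 and 36147 in Tgfbr2ΔEC mice. Means ± SD were 31939 ± 6128, 24432 ± 6483, 35036 ± 7717 and 30966 ± 5116 in the same order, and 3 of the 5 Tgfbr2ΔEC – PLX choroids lay below every control – PLX choroid. Retinal values were 153, 702, 722, 466 and 155 in control – PLX, 616, 578, 616, 547 and 444 in Tgfbr2ΔEC – PLX, 760.1, 1040, 131, 668 and 726 in control + PLX and 978, 989.9, 1168, 804 and 674 in Tgfbr2ΔEC + PLX mice. Mice 1, 5 and 13, all controls, were at 131 to 155, and the remaining 17 retinas at 444 or above.

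Rdh5 (chromosome 10, 128749385 to 128759341, minus strand) encodes the 11-cis-retinol dehydrogenase of the RPE. It had the narrowest spread of the 9 in choroid, with an SD of 0.25 on the log2 scale over 20 mice and values from 11516 in mouse 9 to 24288 in mouse 20. Group means were 18077 ± 2235 in control – PLX, 15412 ± 2659 in Tgfbr2ΔEC – PLX, 19672 ± 1714 in control + PLX and 19538 ± 3659 in Tgfbr2ΔEC + PLX choroids. Retinas held 154 to 721 (median 500.3). On the same strand the gene overlaps Bloc1s1, with means of 1557 in choroid and 562 in retina, so reads shared by both could have been split between them.

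Rdh10 (chromosome 1, 16175555 to 16203958, plus strand) encodes a retinol dehydrogenase of RPE and Müller cells that also serves retinoic acid synthesis. Choroids ranged from 11283 in mouse 9 to 24635 in mouse 11, with group means of 17007 ± 3416, 14347 ± 2253, 18385 ± 4110 and 18847 ± 3695 in the order control – PLX, Tgfbr2ΔEC – PLX, control + PLX, Tgfbr2ΔEC + PLX. Retinas were at 1329, 1297, 1257, 1329 and 1522 in control – PLX, 1314, 1060, 1493, 1426 and 1299 in Tgfbr2ΔEC – PLX, 1106, 1617, 985, 1285 and 1203 in control + PLX and 1449, 1842, 1410, 1563 and 1402 in Tgfbr2ΔEC + PLX mice. This was the narrowest spread of the 9 in retina (SD 0.21, log2). Of the 3 mice with low Rpe65, mouse 13 was the lowest of the 20 for Rdh10 as well, at 985, and mice 1 and 5 were at 1329 and 1522, the latter the highest of its group.

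Rlbp1 (chromosome 7, 79024602 to 79038176, minus strand) encodes CRALBP, the protein that carries 11-cis-retinoids in the RPE and in Müller glia. Choroid values were 30306, 22193, 21286, 19831 and 25035 in control – PLX and 18122, 27090, 20028, 14021 and 20886 in Tgfbr2ΔEC – PLX mice. In the PLX groups they were 33448, 19794, 19794, 28494 and 21419 in controls and 26875, 20352, 17881, 24044 and 28258 in Tgfbr2ΔEC mice. The 4 groups overlapped throughout, with mouse 9 lowest and mouse 11 highest. Retinas had 4408, 10739, 7268, 7949 and 6141 in control – PLX, 5556, 9119, 7402, 7729 and 7520 in Tgfbr2ΔEC – PLX, 7850, 6919, 6023, 7873 and 8547 in control + PLX and 8501, 9021, 8233, 8272 and 7055 in Tgfbr2ΔEC + PLX mice. With these it ranked 388 of all genes in retina, and none of the other 8 genes ranked above 2473.

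Rgr (chromosome 14, 36756866 to 36770921, minus strand) encodes the RPE retinal G protein-coupled receptor, an opsin that binds all-trans-retinal in RPE and Müller cells. It was among the most abundant transcripts of the choroid, at 96276 ± 13103 in control – PLX, 80603 ± 17628 in Tgfbr2ΔEC – PLX, 107391 ± 22271 in control + PLX and 101123 ± 19149 in Tgfbr2ΔEC + PLX. In the retina the values were 613, 2770, 1755, 1164 and 928 in control – PLX, 1503, 2256, 1813, 2615 and 1894 in Tgfbr2ΔEC – PLX, 3054, 2778, 686, 2162 and 2131 in control + PLX and 3101, 3588, 3174, 2710 and 2702 in Tgfbr2ΔEC + PLX mice. Its retinal values followed those of Rpe65, with mice 1, 5 and 13 lowest.

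Best1 (chromosome 19, 9962538 to 9978997, minus strand) encodes bestrophin 1, a calcium-activated chloride channel of the RPE. It was close to the low end of detection, with 66.4, 45.4, 48.3, 31 and 43.8 in control – PLX, 27.8, 63.8, 35.9, 198 and 80.8 in Tgfbr2ΔEC – PLX, 57.5, 74.6, 39, 46.0 and 46.7 in control + PLX and 31.4, 23.5, 52.7, 42.0 and 60.1 in Tgfbr2ΔEC + PLX choroids. Mouse 9 of the Tgfbr2ΔEC – PLX group was highest, at 198, and the other 19 choroids lay between 23.5 and 80.8. The same choroid was the lowest of 20 for 7 of the other 8 genes. Retinas held 2.02 to 16.9 normalized counts, where 1 read was worth about 0.745 to 1.13, so retinal values of Best1 rest on few reads.

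Between the tissues all 9 genes were called higher in choroid, by limma over the 40 libraries with 8 groups. Of the 24317 genes tested, 82.0% were called in either direction and 40.8% as higher in choroid. Every choroid exceeded every retina for 9 of 9 genes, which held for 18.6% of all genes tested. In bulk tissue, fewer RPE cells and less RNA of these genes per cell cannot be told apart. The log2 differences were 6.18 (95% interval 5.86 to 6.49) for Lrat, 5.73 (5.35 to 6.11) for Rpe65, 5.65 (5.32 to 5.98) for Ttr, 5.59 (5.30 to 5.89) for Rgr, 5.41 (5.13 to 5.70) for Rdh5 and 5.06 (4.75 to 5.37) for Stra6. Those of Rdh10 (3.64, 3.49 to 3.79), Best1 (2.68, 2.23 to 3.13) and Rlbp1 (1.59, 1.40 to 1.77) were smaller, with intervals below those of the other 6. Adjusted p-values ran from 1.32e-32 (Rdh10) to 1.05e-13 (Best1). Best1 is low enough in the retina for the added count of 1 to shrink its difference.

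Set against the choroid of the same mouse, the retina held a median of 1.5% of the Lrat level, 1.98% of Rpe65, 2.10% of Ttr, 2.15% of Rgr, 2.57% of Rdh5 and 2.91% of Stra6. The same share was 7.89% for Rdh10 (range 4.49% to 12.6%), 34.3% for Rlbp1 (14.5% to 55.1%) and 14.8% for the scarce Best1 (3.73% to 51.3%). Over the 14 other RPE genes the median of this share was 3.815%. Among the 5 of them used as a reference for RPE content it was 1.22% for Kcnj13 (a potassium channel), 2.59% for Slc16a8 (a lactate transporter), 2.79% for Ermn, 3.83% for Cdh3 and 8.70% for Cldn19 (a tight junction claudin). The other 9 ranged from 0.236% for Serpinf1 to 18.8% for Sulf1, with 9.05% for Mertk (the phagocytosis receptor), 10.3% for Enpp2, 14.8% for Itgb5 and 16.7% for Krt18. The share of Rdh10 was thus within the range of other RPE genes, of which 6 of 14 lay above it, and 0 of 14 lay above that of Rlbp1. For Müller glia genes it was above 100%, with 385% for Kcnj10 and 487% for Slc1a3. The 9 pigment genes, which choroidal melanocytes also express, ranged from 0.046% for Mlana, 0.073% for Tyrp1 and 0.083% for Pmel to 1.15% for Tyr and 1.295% for Oca2, near Kcnj13 and Lrat. Of the 4 fibroblast markers Col1a1 gave 0.059%, Dcn 0.006% and Lum 0.0%, whereas Pdgfra gave 4.05%, above Rpe65, Lrat and Stra6. The share of Rpe65 varied from 0.414% in mouse 1 to 4.29% in mouse 17, and that of Rgr from 0.555% to 4.35%.

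**Figure D2:**
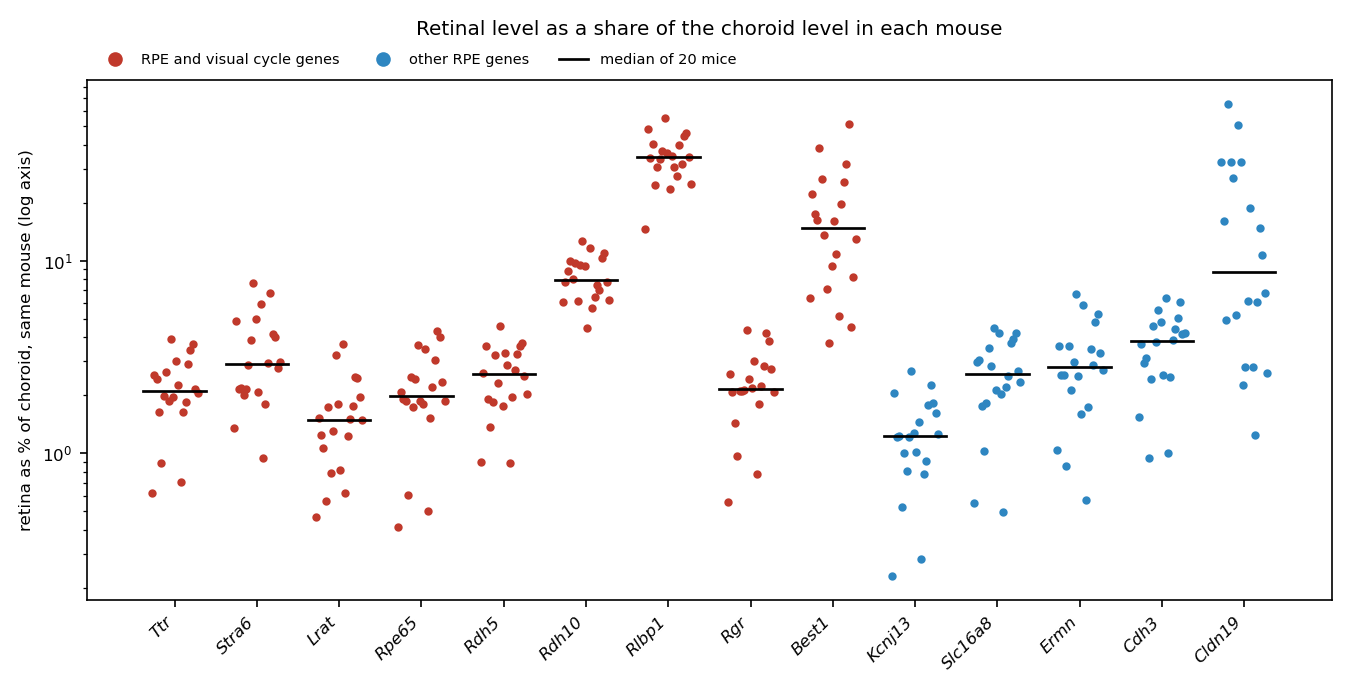
Retinal normalized count as a percentage of the choroid value of the same mouse, on a log axis, for the 9 genes (red) and 5 of the 14 other RPE genes (blue). Points are 20 mice and black lines their medians. Lrat, Rpe65, Ttr, Rgr, Rdh5 and Stra6 have medians of 1.5% to 2.91%, Rdh10 of 7.89% and Rlbp1 of 34.3%.

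From mouse to mouse 8 of the 9 genes varied together in the choroid. The correlation of each gene with the mean of the other 8 over the 20 choroids, given as a description because all points share libraries and groups, was 0.938 for Rgr, 0.907 for Rlbp1, 0.838 for Rdh5, 0.823 for Rpe65, 0.816 for Lrat, 0.798 for Rdh10, 0.781 for Ttr and 0.588 for Stra6. That of Best1 was −0.301. The SD over mice (log2) was 0.25 to 0.39 for the 8 genes, and after subtraction of the mean of 5 other RPE genes (the reference genes above) it was 0.12 to 0.26, so these genes shared part of their spread with RPE transcripts outside the 9. For Best1 the SD was 0.66 alone and 0.83 relative to these genes. Mouse 9 was lowest for 7 of the 9 genes and also had the lowest mean log2 level of the 5 other RPE genes (10.3, against 10.8 to 11.5 in the other 19). The same choroid had the highest mean log2 level of 10 photoreceptor genes (12.848), with mouse 15 next at 12.753. Mouse 11, a control + PLX mouse, was highest for 5 of the 9.

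In the retina the spread was wider. It was 0.91 for Rpe65, 0.78 for Lrat, 0.74 for Rgr and Ttr, 0.70 for Best1, which rests on few reads, and 0.64 for Rdh5 and Stra6, against 0.28 for Rlbp1 and 0.21 for Rdh10. The mean of the 5 other RPE genes had an SD of 0.516. Over the 20 retinas, which share libraries and groups, its correlation was 0.819 with Stra6, 0.811 with Ttr, 0.786 with Rpe65, 0.766 with Rgr, 0.73 with Rdh5 and 0.702 with Lrat, and also 0.615 with Rlbp1 and 0.561 with Rdh10, whose spread was smaller. That with Best1 was 0.033. The 3 retinas with low Rpe65, of mice 1, 5 and 13, had mean log2 levels of the 5 other RPE genes of 5.31, 5.30 and 4.84, below all other 17 retinas (5.53 to 6.82). Mouse 13 was lowest for 6 of the 9 genes. All 3 mice were controls.

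**Figure D3:**
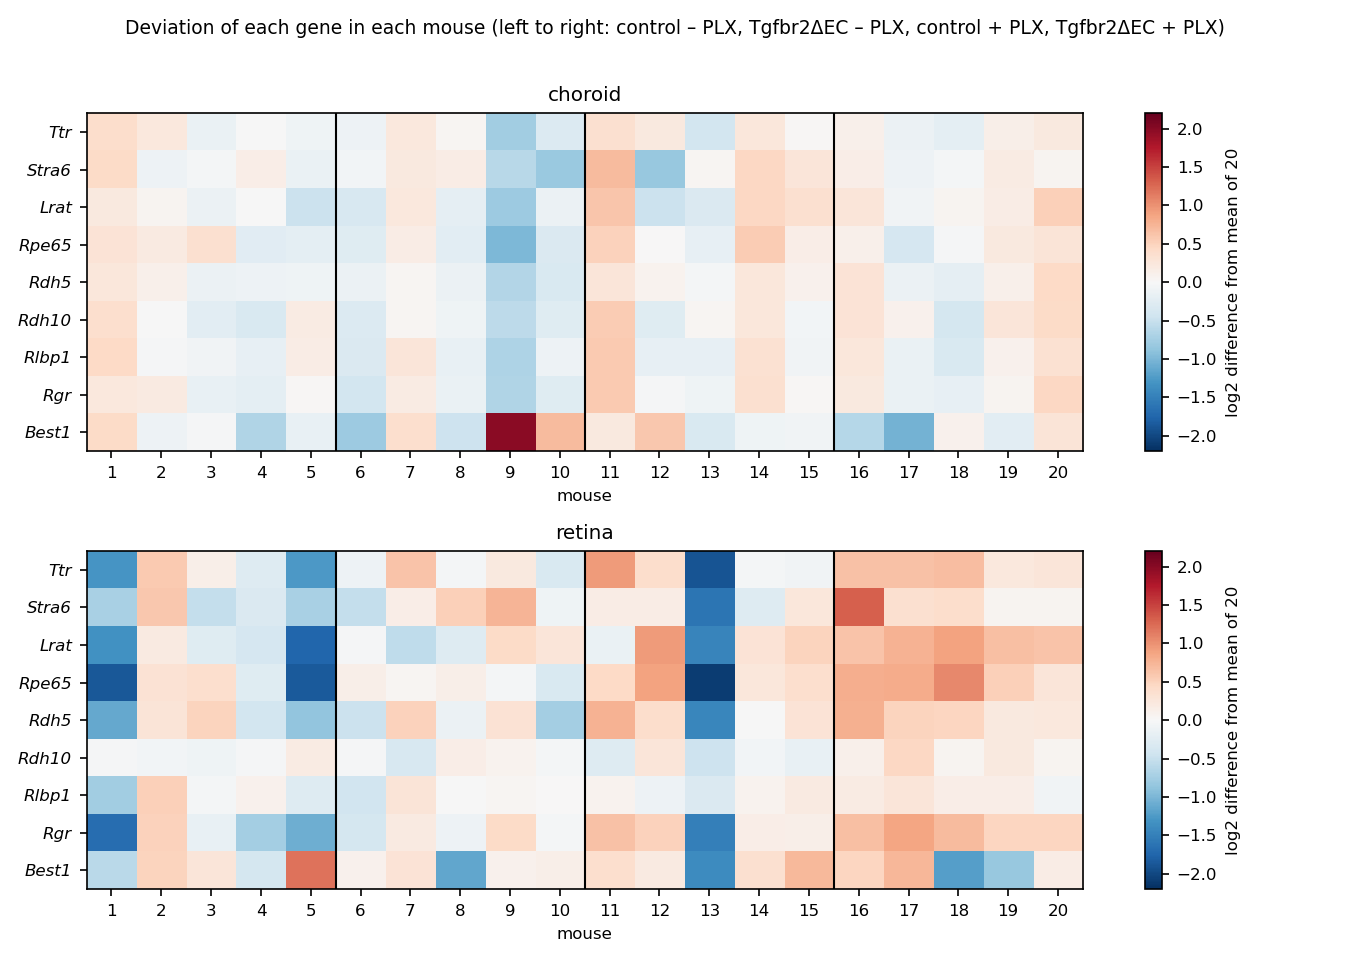
Difference of each gene in each mouse from its mean over the 20 mice of the tissue, in log2 units, with red above and blue below the mean and black lines between the groups. The choroid of mouse 9 is low for 8 of the 9 genes and high for Best1, and the retinas of mice 1, 5 and 13 are low for Ttr, Stra6, Lrat, Rpe65, Rdh5 and Rgr.

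Among 17522 genes with a mean of at least 10 in choroid, those whose log2 levels followed the mean of the 9 most closely over the 20 choroids were Inpp5k (r = 0.918), Slc4a5 (0.890), Arhgef37 (0.883), Slc6a13 (0.877), Car14 (0.877) and Cyp4f17 (0.871). Slc4a5 encodes a bicarbonate cotransporter, Slc6a13 a GABA and taurine transporter and Car14 a membrane-bound carbonic anhydrase. Like the 9 genes, all 6 had higher means in choroid than in retina, for example 8843 against 880.3 for Slc4a5 and 3088 against 130 for Slc6a13.

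Whether endothelial loss of Tgfbr2 went with a change of RPE transcripts was asked first without PLX. In the choroid, 0 of 9 genes were called by limma with 4 groups in 1 fit (1 of 9 at an unadjusted p under 0.05), where 0.00423% of the 23619 genes tested passed, and the p before adjustment was under 0.05 for 9.25%. The log2 differences of Tgfbr2ΔEC from control were below 0 for 8 of 9 genes, with a median of −0.25 against 0.015 over all genes. Of the 14 other RPE genes 11 were below 0 (median −0.124, 0 called). Rpe65 gave −0.41 (95% interval −0.81 to −0.011, adjusted p = 0.519), a fold of 0.753 with an interval from 0.571, and the other 7 gave −0.18 (Lrat) to −0.28 (Stra6). Best1 was at 0.47 (−0.37 to 1.31). The difference of Rpe65 was −0.24 without mouse 9, and that of Best1 0.062. Since the 8 genes share their spread, their common sign is not 8 observations.

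The same choroids differed in their content of photoreceptor transcripts. The mean log2 level of 10 photoreceptor genes (the neural retina score) was 9.60 ± 1.16 in control – PLX and 11.98 ± 0.685 in Tgfbr2ΔEC – PLX choroids, a difference of 2.38 (exact two-sided permutation test, p = 0.00794, the smallest that 5 against 5 can give), with no overlap between the groups. All 10 of these markers had a positive difference (median 2.483, 0 of 10 called). Müller glia markers had a median of only 0.101 in the same comparison (6 of 6 above 0, 0 called), so the score stands for photoreceptor transcripts and not for the whole neural retina. With PLX the score differed by 0.169 between the genotypes (exact permutation test, p = 0.881). That small difference rests on single mice. Without mouse 15, a control at 12.753 against 7.494 to 9.941 in the other 4, it was 0.941 (exact permutation test, p = 0.19), and without mouse 11 or 13 it was −0.374 or −0.174. Whether the genotype difference of the score itself differed between the diets was not tested. Per unit of this score the slopes of the 9 genes were −0.08 (Rpe65) to 0.012 (Best1), with 0 of 9 called (0 of 9 at an unadjusted p under 0.05), where 1.9% of genes were called, and 8.26% were under 0.05 before adjustment. With the score as a covariate the genotype difference of Rpe65 without PLX was −0.21 ± 0.23 (SE), against −0.41 without the covariate. Those of the other 7 genes below 0 also lay nearer to 0, with Rdh10 at −0.059 (from −0.24), Rlbp1 at −0.084 (from −0.26), Rgr at −0.089 (from −0.27), Lrat at −0.089 (from −0.18), Rdh5 at −0.16 (from −0.24), Ttr at −0.18 (from −0.25) and Stra6 at −0.21 (from −0.28). The covariate also raised each SE, for example from 0.191 to 0.233 for Rpe65, from 0.205 to 0.259 for Lrat and from 0.229 to 0.291 for Stra6. With it each of these differences was smaller than its SE, as that of Lrat was without it. The part of the score in the lower RPE values was not tested.

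With PLX, 0 of 9 genes were called between Tgfbr2ΔEC and control choroids (0 of 9 at an unadjusted p under 0.05), where again 0.00423% of genes were called. The differences ran from −0.37 (Best1) and −0.17 (Rpe65, 95% interval −0.57 to 0.23) to 0.06 (Lrat). The difference between the diets in the genotype effect was called for 0 of 9 genes (0 at an unadjusted p under 0.05) and 0.0% of all genes (1552 of 23619 at an unadjusted p under 0.05). For Rpe65 it was −0.24 (−0.81 to 0.32).

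Whether MP depletion went with a change of the same genes was asked over both genotypes, and none of the 9 was called. In choroid 0 of 9 were called (2 of 9 at an unadjusted p under 0.05), where 7.13% of all genes passed, with 19.3% under 0.05 before adjustment. In the same comparison 7 of 8 MP markers were called lower (median log2 −2.84). Of the 9 genes 8 had values above 0, with a median of 0.23 against 0.001 over all genes. Markers of several other cell types had medians of like size in these libraries. They were 0.231 for endothelium (4 of 4 above 0, 1 called higher), 0.282 for fibroblasts (4 of 4, 1 called higher) and 0.252 for smooth muscle and pericytes (4 of 5, 2 called higher). Melanocytes gave 0.211 (4 of 4, 1 called higher) and Schwann cells 0.189 (3 of 3, 0 called), and the median of the 14 other RPE genes was 0.201. Lens (0.292, 5 of 5) and liver markers (0.374, 2 of 2) were also above 0, with 0 called. Medians were smaller for Müller glia (0.112, 4 of 6 above 0, 1 called lower) and skeletal muscle markers (0.018, 3 of 4, 0 called). Photoreceptor markers lay on the other side of 0, with a median of −1.071 for the 10 neural retina genes (0 of 10 above 0) and −0.97 for cone genes (0 of 5), as did those of ciliary epithelium (−0.539, 1 of 3 above 0), with 0 called in these lists. The part of this composition in the values of the 9 genes was not tested. Lrat was at 0.31 (0.007 to 0.61, adjusted p = 0.248), Rpe65 at 0.25 (−0.033 to 0.53, adjusted p = 0.331), Rdh10 at 0.25, Rgr at 0.24, Rdh5 at 0.23 (0.039 to 0.43, adjusted p = 0.16), Stra6 at 0.17, Rlbp1 at 0.14 and Ttr at 0.11. Best1 was at −0.25 (−0.84 to 0.35). The upper ends of the intervals of the first 8 lie at 0.61 or below. Within genotypes these 8 differences were 0.019 (Ttr) to 0.186 (Lrat) in controls and 0.205 (Ttr) to 0.43 (Lrat) in Tgfbr2ΔEC mice, and the difference between genotypes is the one given above for the diets.

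In the retina 0 of 9 genes were called between Tgfbr2ΔEC and control mice without PLX (0 of 9 at an unadjusted p under 0.05) and 0 of 9 with PLX (1 of 9), where limma called 0.0% of the 23243 genes in both comparisons (758 and 629 at an unadjusted p under 0.05). The fitted differences were nonetheless 0.22 or more for Lrat, Rpe65, Rgr, Stra6, Ttr and Rdh5, and below 0 for Best1 (−0.30 without and −0.19 with PLX). Without PLX they were 0.67 (−0.094 to 1.44) for Lrat, 0.65 (−0.33 to 1.62) for Rpe65, 0.65 (−0.087 to 1.38) for Rgr, 0.50 for Stra6 and Ttr and 0.22 for Rdh5, against 0.075 for Rlbp1 and −0.037 for Rdh10. With PLX, Rpe65 was at 0.72 (−0.26 to 1.69), Stra6 at 0.70, Lrat at 0.69, Rgr at 0.65, Ttr at 0.63 and Rdh5 at 0.43, and Rdh10 at 0.32 (0.064 to 0.58, adjusted p = 1). Single control mice carried much of this. Rpe65 was at 0.35 without mouse 1 in the first comparison and at 0.20 without mouse 13 in the second, and Rgr at 0.39 and 0.28.

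Of the 5 reference genes the mean log2 level was 5.81 ± 0.532 in control and 6.11 ± 0.383 in Tgfbr2ΔEC – PLX retinas, and 5.66 ± 0.51 and 6.49 ± 0.262 with PLX. Cldn19 was the 1 of the 5 that was lower without PLX (−0.69). Of all 14 other RPE genes, 6 were above and 8 below 0 without PLX (median −0.016), and 10 above and 4 below 0 with PLX (median 0.515), with 0 of 14 called in either. The part of RPE carried along at dissection in the retinal differences was not tested.

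For PLX in the retina 0 of 9 genes were called (2 of 9 at an unadjusted p under 0.05), where 1.09% of genes passed, with 6.28% under 0.05 before adjustment. In the same comparison 8 of 8 MP markers were lower (median log2 −6.43). Lrat was at 0.74 (0.19 to 1.28, adjusted p = 0.397), Rpe65 at 0.67 (adjusted p = 0.809), Rgr at 0.61 (0.095 to 1.13, adjusted p = 0.59), Rdh5 at 0.44 and Ttr at 0.36. Rlbp1 (0.12, −0.14 to 0.37) and Rdh10 (0.041, −0.14 to 0.22) lay near 0 with narrow intervals. Stra6 was at 0.173 (−0.328 to 0.675) and Best1 at −0.084 (−0.792 to 0.623), the 1 of 9 below 0. Within Tgfbr2ΔEC mice, every + PLX retina lay above every – PLX retina for 3 of 9 genes, Rpe65 (674 to 1168 against 444 to 616), Lrat (338 to 407 against 149 to 295) and Rgr (2702 to 3588 against 1503 to 2615), as for 0.323% of all genes tested, and within controls for 0 of 9. This split was looked at after the values were seen. The mean log2 level of the 5 reference genes was higher in the same + PLX retinas (6.10 to 6.82 against 5.53 to 6.46, with overlap). In controls its mean was 5.81 without and 5.66 with PLX, where Rpe65 differed by 0.632 and Lrat by 0.726 between the diet means. Of the 5, only Cldn19 was lower with PLX in controls (mean log2 4.845 to 3.115), a gene of few counts in retina (median 16.2). Kcnj13 (5.414 to 5.465), Slc16a8 (6.851 to 7.212), Ermn (6.215 to 6.36) and Cdh3 (5.719 to 6.142) were higher. For PLX in retina, 9 of the 14 other RPE genes were above 0 (median 0.099). The part of RPE content in the split was not tested.

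Without mouse 13, Lrat was called for PLX in retina, at 0.92 ± 0.215 (SE, adjusted p = 0.039), and it was the one call of any of the 9 genes in a genotype or diet comparison among all alternatives tried.

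**Figure D4:**
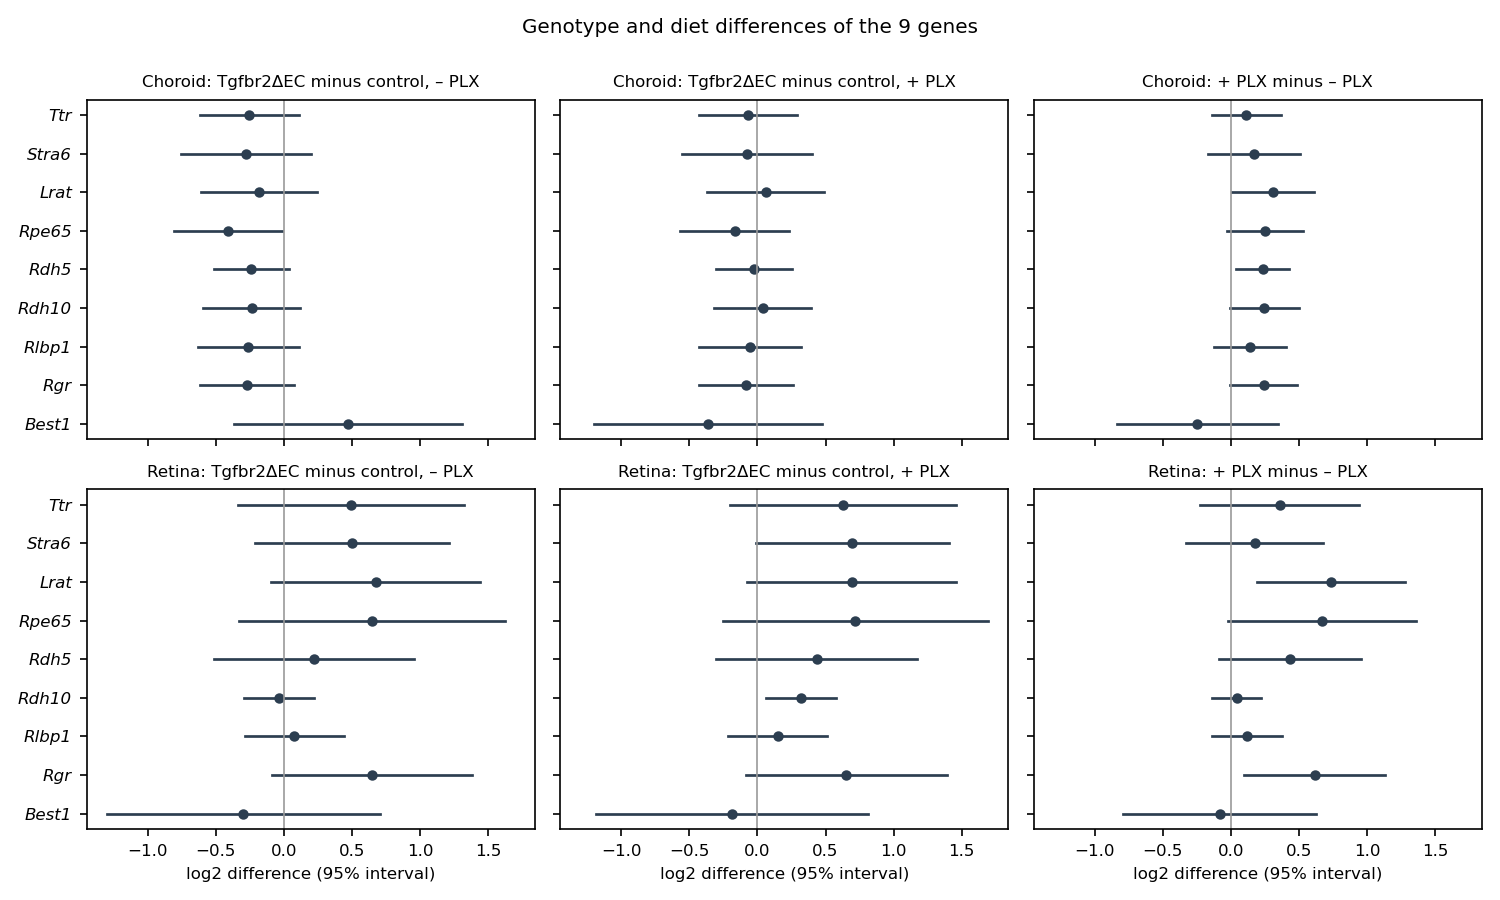
Log2 differences of the 9 genes between genotypes and diets, with 95% intervals, in choroid (top) and retina (bottom). Intervals are narrower in choroid than in retina for Ttr, Stra6, Lrat, Rpe65, Rdh5 and Rgr, and none of the differences passed the adjusted p of 0.05.

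The other genes of retinoid metabolism were split between the tissues. Of 13 partners of the cycle, 5 were called higher in choroid and 7 higher in retina, a share near the 82.0% of all genes called in this comparison. Higher in choroid was Degs1, a desaturase given a role as a retinol isomerase (log2 difference 2.39). Higher in retina were Rdh8 (−6.22) and Rdh12 (−5.38), the dehydrogenases that reduce all-trans-retinal, and Rbp3 (−5.90), the carrier between the cell layers. Rdh8, Rdh12 and Rbp3 also rose with the photoreceptor score over the choroids, by 1.3, 0.71 and 1.08 (log2) per unit. They were the 3 of 13 called there, where 1.9% of all genes were. No partner was called for genotype or PLX in either tissue.

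Of 13 genes of retinoic acid and carotenoid handling, 10 were called higher in choroid (40.8% of all genes) and 2 in retina, and the share called in either direction was again near the 82.0% of all genes. The differences were largest for Aldh1a2 (9.87) and Aldh1a3 (5.31), enzymes that make retinoic acid, and in the other direction for Crabp1 (−2.80), a retinoic acid-binding protein, and Scarb1 (−0.53), a lipoprotein receptor that takes up carotenoids. For PLX in choroid 2 of 13 were called, where 7.13% of all genes were. Aldh1a1, another retinoic acid-making enzyme, rose from means of 1480 ± 619 (control) and 1542 ± 608 (Tgfbr2ΔEC) to 2478 ± 688 and 2839 ± 792 (log2 0.87 ± 0.2 SE, adjusted p = 0.00809). Bco2, a carotenoid-cleaving enzyme, fell from 125 ± 10.9 and 126 ± 24.9 to 102 ± 5.71 and 77.9 ± 7.49 (log2 −0.48, adjusted p = 0.00503). Neither was called in retina.

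All 14 other RPE genes and all 9 pigment genes were called higher in choroid, from Serpinf1 (8.74), which encodes PEDF, and Kcnj13 (6.49) among the first to Mlana (10.7) and Pmel (10.3) among the second. In choroid with PLX, Serpinf1 was the 1 of 14 called (log2 0.34, adjusted p = 0.048), a share close to the 7.13% of all genes, and 0 of 9 pigment genes were called. Fibroblast markers had a median of 0.282 in the same comparison, and their part in the change of Serpinf1 was not tested. The retinal share of Serpinf1 was 0.236%, under those of the 9 genes and of the 5 reference genes.

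Of 6 transcription factors of the RPE, Mitf (3.70), Tfec (5.51) and Sox9 (1.56) were called higher in choroid, Pax6 (−5.94) and Lhx2 (−0.56) higher in retina, and Otx2 was not called (−0.08), so 5 of 6 were called beside 82.0% of all genes. Tfec, a relative of Mitf that macrophages express as well, fell with PLX in choroid (log2 −1.41, adjusted p = 3.7e-05), from 83 ± 15.9 and 86.8 ± 12.6 to 39.7 ± 18.4 and 27 ± 5.33 in control and Tgfbr2ΔEC mice, with no overlap between diets in either genotype. MP markers moved the same way in these libraries, and their part in the change of Tfec was not tested.

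Tgfbr2 itself did not separate the genotypes at the level of whole tissue, with means of 10503 ± 425 and 10176 ± 1077 in control and Tgfbr2ΔEC – PLX choroids (adjusted p = 0.925) and 11155 ± 1530 and 11220 ± 454 with PLX (adjusted p = 1). Many cells besides endothelium express this gene, and a whole-gene value cannot show the loss of a floxed exon. Normalized counts summed to between 24718469 and 25956180 per choroid library and between 22256892 and 24507335 per retina library. The steps between low values put the depth at about 21628874 to 28174821 reads for choroids and 20847747 to 30421581 for retinas. At this depth all genes but Best1 stood on at least 65.0 normalized counts in each library. Within a tissue each limma test set the group difference against the spread between mice. The tissue comparison took the 40 libraries as separate, with the mouse as a block as the alternative.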

How the data were processed

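Normalized counts of 40 libraries, choroid and retina of 20 mice, were analysed in 1 table of 54307 genes. According to the submitters' notes and the study's methods, the authors checked 50-cycle single reads with FastQC 0.11.5, quantified them with Salmon 1.10.1 against GRCm39, summed transcripts to genes with tximport and divided by DESeq2 1.36.0 size factors, and the deposited signal values are these normalized counts. Whether counting used the strand is not given in the sources used here. Whole reads could not be recovered (51.9% to 80.2% of low values were near-whole, within 0.1 of a read), so no count model was fitted.

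Groups came from the sample labels. Of the table's genes 53700 were matched by Ensembl identifier to GENCODE M39 for symbols and positions. Genes averaging 1 or more entered the tests, on log2(normalized count + 1) by limma 3.58.1 (R 4.3.3) with a mean-variance trend, 4 groups in 1 fit per tissue and 8 groups for the tissue comparison, with Benjamini-Hochberg adjustment over all genes tested and calls at an adjusted p of 0.05 or under. Fold changes of low genes are understated by the added 1. The 20 scores of neural retina were compared by exact permutation. Scripts were tested on simulated data. Python 3.11.15 with pandas 2.3.3 and scipy 1.17.1 did the rest. The 9 genes and all lists were chosen with earlier results of these data known. All 9 passed the filter in both tissues and are named throughout. Of the listed partner genes those called, and the 2 with the largest tissue differences in each direction, are named, with defining genes beside them. One gene that this rule names is not reported here. Likeness was Pearson's r over 20 choroids. The alternatives were another pseudocount, a mean of at least 10, equal library totals, covariates, fits of only the groups compared, each library left out and the mouse as a block. The labels give both tissues the same mouse numbers. Deviations from the group means correlated between tissues of a mouse at −0.158 to 0.289 (median 0.126).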

Additional observations from a re-analysis of the deposited data

Results flagged for a closer look

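Within the 5 mice of a group and tissue, a mouse stood apart from the rest by Dixon's criterion in 4 of 88 groups examined, where 4.4 would be found by chance at 1 in 20. All 4 were in the retina. Rdh10 in control – PLX retinas had a gap of 0.729 of the group's range below mouse 5 (1522 normalized counts), and Stra6 in the same group had one of 0.781 below mouse 2 (459). Best1 in Tgfbr2ΔEC – PLX retinas had a gap of 0.784 above mouse 8 (2.56 normalized counts), a value that rests on few reads. Stra6 in Tgfbr2ΔEC + PLX retinas had one of 0.821 below mouse 16 (764).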

How the results depend on the processing

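The tissue difference of all 9 genes kept its direction and its call under every alternative run, and no genotype or diet difference of the 9 was called under any, with the exception of Lrat for PLX in retina without mouse 13. Leaving out mice 1 by 1 therefore gave 0 to 1 of the 9 genes called for PLX in retina. Counts over all genes were less stable. For the choroid genotype comparison without PLX, 1 gene was called, against 0 with a mean of at least 10, 303 with a fit of only the 10 libraries compared, and 1 to 411 with mice left out in turn, the 411 without mouse 15 and 2 without mouse 4 or 8. With PLX the count was 0 with a pseudocount of 5, a mean of at least 10, the sex score, the neural retina score, both scores or only the 10 libraries, and 0 to 1 with mice left out. For PLX in retina it was 154 with a mean of at least 10, where Best1 was not tested. The neural retina score called 107 (without mouse 15) to 544 genes with mice left out, and the retina genotype comparison with PLX 0 to 1 (1 without mouse 12). In an alternative chosen after seeing the data, the genotype difference of the photoreceptor score with mice left out was 1.957 to 2.624 without PLX and −0.374 to 0.941 with PLX, where it stayed uncalled. The cause of these shifts was not tested. Uncalled differences of the 9 genes changed sign most often in choroid with PLX between genotypes, in 17 of 180 fits with a mouse left out. Scaling libraries to equal totals moved the median of all genes in the tissue comparison from −0.012 to −0.121.

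With the mouse as a replicate block, the pairing that the labels give for the 2 tissues, 19855 genes were called between choroid and retina in place of 19930, and all 9 genes stayed called. It changed no other call, since the other comparisons lie within a tissue and share no mouse between groups.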
